A study of Homo sapiens with 12 samples.

Results

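Expression and m6A peaks were examined for 10 genes of serine synthesis and one-carbon metabolism: PHGDH, PSAT1, PSPH, SLC1A4, SHMT1, SHMT2, MTHFD1, MTHFD2, MTHFD1L and ALDH1L2. They were chosen by gene name, with earlier results of these data known, and all 10 were among the 29696 genes of the expression table. The cells were A375, a human melanoma line, infected with a lentivirus carrying either a short hairpin RNA against the m6A demethylase ALKBH5 (shALKBH5) or a control (shCtrl, a scrambled hairpin in the study's methods). Those methods give a harvest at 48 h after infection for RNA-Seq, but the labels name the sequencer that the methods give for MeRIP-Seq, so whether this time holds for the libraries analysed here is uncertain. Each group had 3 input libraries, which carry the expression values, and 3 immunoprecipitation (IP) libraries, in which RNA fragments were pulled down with an antibody against m6A. Both groups were A375 cells in the same culture medium, the labels give no further treatment or allele, and the hairpin that the sequenced cells carried is not named. The deposited m6A peaks form 1 list per group with no value per library.

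Cells make serine from the glycolytic intermediate 3-phosphoglycerate in 3 steps, catalysed in turn by PHGDH, PSAT1 and PSPH, and also take serine up through carriers such as SLC1A4. Serine hydroxymethyltransferases, SHMT1 in the cytosol and SHMT2 in mitochondria, split serine into glycine and a one-carbon unit that is carried on folate. In mitochondria MTHFD2 oxidises that unit, and MTHFD1L then releases it as formate or ALDH1L2 oxidises it to carbon dioxide. In the cytosol MTHFD1 joins formate to folate again for the synthesis of purines and thymidylate. The amino acid response factor ATF4 is known to drive several of these genes in tumour cells. m6A is a methyl mark on adenosines of messenger RNA, found mostly near stop codons and in 3'UTRs, and ALKBH5 removes it.

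The knockdown and the libraries were checked first. ALKBH5 was at 3.39, 3.92 and 3.12 FPKM in the shALKBH5 libraries and at 19.3, 17.8 and 17.6 FPKM in the shCtrl libraries, which gave -2.36 (standard error 0.0887) as the log2 fold change. FPKM, which counts fragments per length of transcript and per depth of the library, summed to between 212760 and 223231 per library. Low values showed no steps that would reveal single reads, so the depth is unknown. MKI67, a gene of dividing cells, fell from 10.8 ± 1.97 to 2.88 ± 0.302 FPKM (SD, n = 3; log2 fold change -1.86), and its part in the results below was not tested. Of 9 melanoma markers in the table, 6 reached a mean of 1 FPKM, led by SOX10 at 181 and 184 FPKM in shALKBH5 and shCtrl cells, while the pigment genes PMEL, TYR and DCT stayed below it and MLANA was not analysed here. Of the markers fixed for other cell types, KRT10, PDGFRB, LUM, KDR and CD68 reached 1 FPKM. The immune sum, nearly all CD68, ranged from 38.3 to 42.1 FPKM in shALKBH5 and from 14.8 to 17.3 FPKM in shCtrl libraries. The fibroblast sum ranged from 5.55 to 6.72 against 8.77 to 9.71 FPKM, the keratinocyte sum from 10.7 to 11.5 against 8.90 to 9.53 FPKM and the endothelial sum from 3.75 to 4.24 against 2.33 to 2.64 FPKM. The part of other cell types in the results was not tested.

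Knockdown of ALKBH5 went with lower transcript levels of most of the 10 genes. SLC1A4, PHGDH, SHMT1, PSAT1, SHMT2, MTHFD1L and MTHFD1 fell, PSPH rose, and MTHFD2 and ALDH1L2 did not pass the test. All 10 genes passed the filter of a mean of 0.5 FPKM over the 6 libraries and were tested with limma on log2(FPKM + 0.1), with p-values adjusted by Benjamini-Hochberg over all 12985 tested genes and called under 0.05. By this rule 7 of 10 were lower, beside 26.2% of all tested genes, and 1 of 10 was higher, beside 34.7%. In either direction, 8 of 10 were called and 61.0% of all tested genes were. The median log2 fold change of the 10 genes was -0.53, and that of all tested genes was 0.09. In 7 genes every shALKBH5 library lay below every shCtrl library, a pattern that 29.0% of tested genes showed, and in PSPH every shALKBH5 library lay above, which 38.0% showed. An exact permutation test over 3 against 3 libraries cannot give a two-sided p below 0.1, which is the p of each of these 8 genes. The labels do not say whether the numbered libraries came from separate cultures, and the study's methods speak only in general of independent repeats, so the p-values measure the spread between libraries, which may be technical. In bulk RNA, fewer cells expressing a transcript and less of it per cell cannot be told apart.

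**Figure D1:**
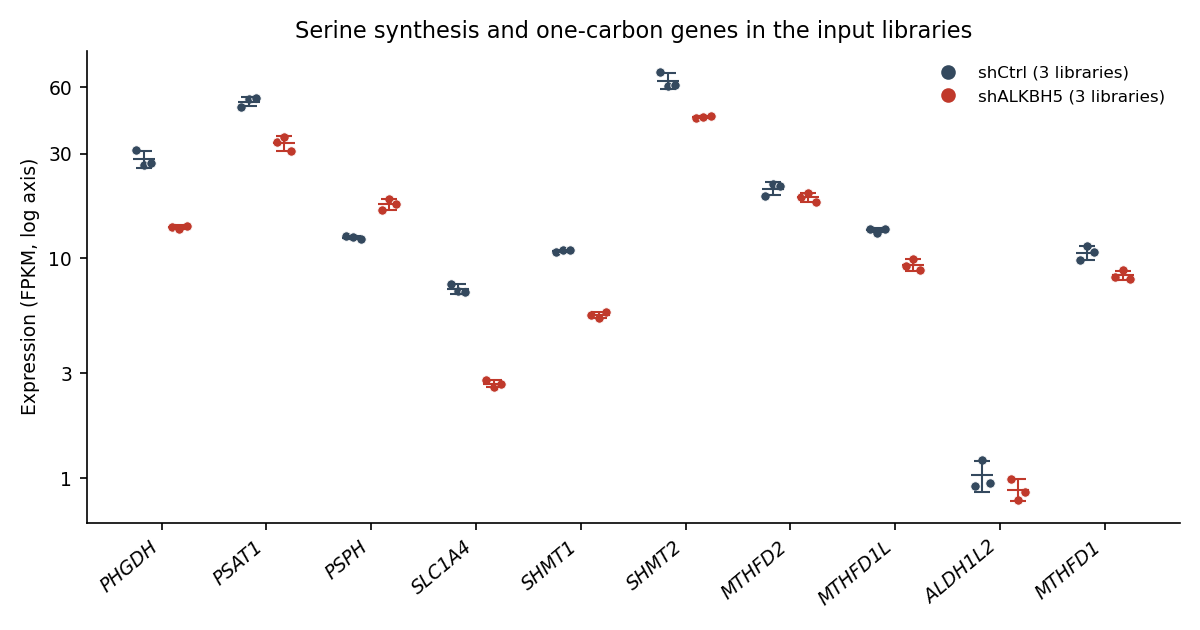
Expression of the 10 genes in each input library, in FPKM on a log axis. Points are libraries (3 per group), long bars the group means and short bars 1 SD. The shALKBH5 points lie below all shCtrl points in 7 genes and above them in PSPH, and the groups overlap in MTHFD2 and ALDH1L2.

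Of the 3 enzymes that make serine, the first and second fell and the last rose. PHGDH (ENSG00000092621, chromosome 1, 119648411 to 119744218, plus strand), which oxidises 3-phosphoglycerate in the committed step, was at 13.9, 13.7 and 14.1 FPKM in shALKBH5 libraries and at 31.0, 26.5 and 27.1 FPKM in shCtrl libraries. The shALKBH5 libraries were nearly alike, and even the lowest control lay well above them. The mean was 13.9 ± 0.229 FPKM (SD, n = 3) against 28.2 ± 2.44 FPKM, or 49.2% of the shCtrl mean, and the log2 fold change -1.01 (standard error 0.0642, adjusted p = 1.20e-05, limma). Together with SLC1A4, PHGDH had a called log2 fold change of -1 or below, as did 6.29% of tested genes, but PHGDH was at -0.94 without shCtrl replicate 1 and at -0.97 under a pseudocount of 1. Positions are given as in the authors' table, whose genome build is not named.

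PSAT1 (ENSG00000135069, chromosome 9, 78297125 to 78330093, plus strand), the aminotransferase of the second step, was the second most abundant of the 10 transcripts in both groups. It was at 33.9, 35.6 and 30.7 FPKM with shALKBH5 and at 48.8, 52.9 and 53.5 FPKM with shCtrl, with no overlap. The shALKBH5 mean of 33.4 ± 2.50 FPKM (SD, n = 3) was 64.6% of the shCtrl mean of 51.7 ± 2.54 FPKM (log2 fold change -0.63, standard error 0.0646, adjusted p = 0.000125, limma).

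PSPH (ENSG00000146733, chromosome 7, 56011051 to 56051604, minus strand), the phosphatase that releases serine, moved the other way. Its libraries were at 16.6, 18.6 and 17.6 FPKM in shALKBH5 cells and at 12.6, 12.5 and 12.2 FPKM in shCtrl cells. All shALKBH5 values were above all control values, and the controls lay within a narrow range. PSPH rose 1.42-fold, from 12.4 ± 0.199 to 17.6 ± 1.03 FPKM (SD, n = 3; log2 fold change 0.50, standard error 0.0534, adjusted p = 0.000159, limma), and 80.0% of tested genes had a lower log2 fold change.

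The balance of the 3 transcripts was read from ratios of FPKM within each library. The PSPH to PHGDH ratio was 1.19, 1.36 and 1.25 in shALKBH5 libraries and 0.406, 0.470 and 0.450 in shCtrl libraries. PSPH thus exceeded PHGDH in every shALKBH5 library and in no shCtrl library (means 1.27 ± 0.0885 and 0.442 ± 0.0328, SD, n = 3; exact permutation test, two-sided, p = 0.1). As PSPH rose and PHGDH fell without overlap, the groups of this ratio could not overlap, so its p was set in advance and adds no support. The PSAT1 to PHGDH ratio moved less, with 2.43, 2.61 and 2.18 against 1.57, 1.99 and 1.97, and its groups did not overlap either (exact permutation test, p = 0.1). Summed over the 3 enzymes, expression was 64.9 ± 2.78 FPKM in shALKBH5 and 92.4 ± 0.467 FPKM in shCtrl cells (SD, n = 3).

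SLC1A4 (ENSG00000115902, chromosome 2, 64988477 to 65023865, plus strand), a sodium-dependent carrier of serine, alanine and other small neutral amino acids, fell most of the 10 genes. It was at 2.79, 2.61 and 2.69 FPKM in shALKBH5 libraries and at 7.67, 7.07 and 7.02 FPKM in shCtrl libraries. The gap between the groups was many times the spread within either. The mean fell from 7.255 ± 0.361 to 2.70 ± 0.0901 FPKM (SD, n = 3), to 37.1% of the shCtrl mean (log2 fold change -1.40, standard error 0.0638, adjusted p = 2.92e-06, limma). A lower log2 fold change was found in 3.33% of tested genes. An antisense gene, LINC02245, covers the locus, but its mean was at most 0.144 FPKM in either group.

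Both serine hydroxymethyltransferases fell, the cytosolic enzyme further than the mitochondrial one. SHMT1 (ENSG00000176974, chromosome 17, 18327860 to 18363563, minus strand) was at 5.50, 5.33 and 5.68 FPKM in shALKBH5 cells and at 10.7, 10.9 and 10.9 FPKM in shCtrl cells. Both groups were tight and lay far apart. The shALKBH5 mean of 5.50 ± 0.173 FPKM was 50.9% of the shCtrl mean of 10.8 ± 0.128 FPKM (SD, n = 3; log2 fold change -0.96, standard error 0.0492, adjusted p = 4.57e-06, limma). SHMT2 (ENSG00000182199, chromosome 12, 57229573 to 57234935, plus strand), the most abundant of the 10 transcripts in both groups, was at 43.4, 43.8 and 44.4 FPKM against 70.3, 60.8 and 61.7 FPKM. Its first control library was higher than the others, and all controls lay above all shALKBH5 libraries. SHMT2 fell from 64.3 ± 5.26 to 43.9 ± 0.513 FPKM (SD, n = 3; log2 fold change -0.55, standard error 0.0591, adjusted p = 0.000163, limma). The SHMT2 to SHMT1 ratio was 7.98 ± 0.211 in shALKBH5 and 5.95 ± 0.560 in shCtrl libraries (SD, n = 3), with no overlap (exact permutation test, two-sided, p = 0.1).

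SHMT1 lies on the same chromosome as the targeted gene, 118 kb from ALKBH5. Apart from these genes, 16 tested genes lie within 500 kb of ALKBH5, and 4 of them were higher, 4 lower and 8 not past the threshold, with a median log2 fold change of 0.09. LLGL1, FLII and MIEF2, which lie between ALKBH5 and SHMT1, were lower (log2 fold changes -0.67, -0.37 and -0.45), TOP3A between them did not pass (-0.08), and SMCR8, next to SHMT1, rose (0.57). The 3' end of SHMT1 overlaps that of SMCR8 on the opposite strand by 197 bases. SMCR8 was at 14.1, 15.0 and 14.3 FPKM in shALKBH5 and at 10.0, 9.48 and 9.59 FPKM in shCtrl libraries, so the neighbours moved in opposite directions. The libraries keep the strand by the labels' protocol, but whether the counting used it is not given. These genes were chosen by position after the values of SHMT1 were seen.

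**Figure D2:**
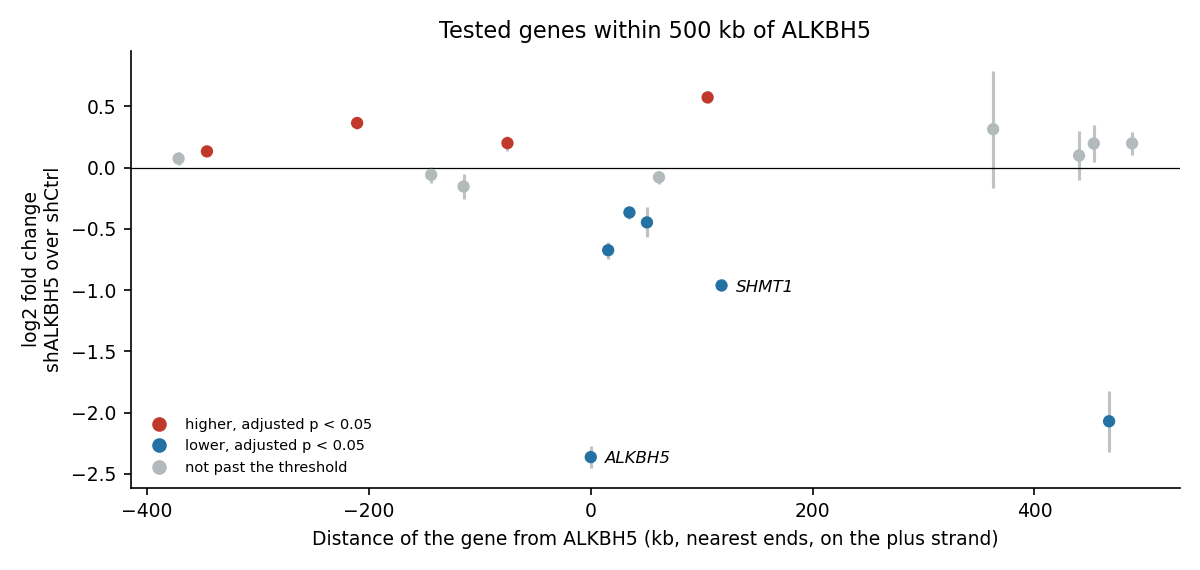
Log2 fold change, shALKBH5 over shCtrl, of the tested genes within 500 kb of ALKBH5 against their distance from ALKBH5 in kb (nearest ends). Vertical bars are 1 standard error of the limma fit and colours give the call. SHMT1, at 118 kb, is at -0.96 and ALKBH5 itself at -2.36, with higher and lower genes on the same side as SHMT1 and 3 higher genes on the other.

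The mitochondrial folate enzymes did not move alike. MTHFD1L (ENSG00000120254, chromosome 6, 150865549 to 151101887, plus strand), the mitochondrial formate-releasing synthetase, was at 9.22, 9.98 and 8.81 FPKM in shALKBH5 cells and at 13.6, 13.1 and 13.7 FPKM in shCtrl cells, with no overlap. It fell to 69.5% of the shCtrl mean, from 13.4 ± 0.309 to 9.34 ± 0.591 FPKM (SD, n = 3; log2 fold change -0.52, standard error 0.0578, adjusted p = 0.000184, limma). MTHFD2 (ENSG00000065911, chromosome 2, 74198610 to 74217565, plus strand), the mitochondrial methylene-folate dehydrogenase, was at 19.1, 19.8 and 18.0 FPKM against 19.2, 21.8 and 21.3 FPKM. The groups overlapped, since the first control library lay among the shALKBH5 values. Its log2 fold change was -0.13 with a 95% interval from -0.28 to 0.02 (adjusted p = 0.106, limma), and it passed the threshold as lower without that control library (-0.19, adjusted p = 0.0201, limma) or with libraries rescaled by their median ratio (-0.21, adjusted p = 0.0165, limma).

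ALDH1L2 (ENSG00000136010, chromosome 12, 105019784 to 105107643, minus strand), the mitochondrial formyl-folate dehydrogenase, was the lowest of the 10 transcripts in both groups. Its libraries were at 0.995, 0.796 and 0.867 FPKM in shALKBH5 and at 0.922, 1.22 and 0.954 FPKM in shCtrl cells, which overlap. The interval of its log2 fold change of -0.19 was wide, from -0.54 to 0.16 (95%; adjusted p = 0.298, limma), and the value was -0.08 without shCtrl replicate 2. On the opposite strand, C12orf45 shares 54414 bases of its span with ALDH1L2 and was at 0.607 and 0.382 FPKM in shALKBH5 and shCtrl cells, and WASHC4 shares 320 bases and was at 1.30 and 1.12 FPKM. Reads of these genes cannot be told apart from those of ALDH1L2 in the shared stretches if the counting ignored strand.

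MTHFD1 (ENSG00000100714, chromosome 14, 64388031 to 64463457, plus strand), the trifunctional folate enzyme of the cytosol, fell least of the 7 lower genes. It was at 8.26, 8.81 and 8.07 FPKM with shALKBH5 and at 9.79, 11.4 and 10.7 FPKM with shCtrl. The groups did not overlap, though the gap between them was small. The mean fell from 10.6 ± 0.788 to 8.38 ± 0.385 FPKM (SD, n = 3; log2 fold change -0.34, standard error 0.0683, adjusted p = 0.00388, limma). Within each library the MTHFD2 to MTHFD1 ratio was 2.31, 2.25 and 2.23 in shALKBH5 and 1.96, 1.92 and 1.99 in shCtrl cells, with no overlap (exact permutation test, two-sided, p = 0.1). The MTHFD1L to MTHFD1 ratio moved the other way, at 1.12, 1.13 and 1.09 against 1.39, 1.15 and 1.27, also with no overlap (exact permutation test, two-sided, p = 0.1).

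Ordered by mean FPKM, which is scaled by transcript length, shCtrl cells ran SHMT2, PSAT1, PHGDH, MTHFD2, MTHFD1L, PSPH, SHMT1, MTHFD1, SLC1A4 and ALDH1L2. Among neighbours in this order, SHMT1 and MTHFD1 overlapped between libraries and the others did not. In shALKBH5 cells the order was SHMT2, PSAT1, MTHFD2, PSPH, PHGDH, MTHFD1L, MTHFD1, SHMT1, SLC1A4 and ALDH1L2, and the overlapping neighbours were MTHFD2 and PSPH. PHGDH went from rank 3 to rank 5 and PSPH from rank 6 to rank 4. Summed over the 10 genes, expression was 155 ± 4.12 FPKM in shALKBH5 and 221 ± 3.51 FPKM in shCtrl libraries (SD, n = 3), a ratio of 0.701. The mitochondrial genes (SHMT2, MTHFD2, MTHFD1L and ALDH1L2) summed to 73.1 ± 1.19 against 99.5 ± 3.95 FPKM, and the cytosolic pair (SHMT1 and MTHFD1) to 13.9 ± 0.223 against 21.4 ± 0.903 FPKM. Named pseudogenes of PSAT1, SHMT1, MTHFD1 and MTHFD2 in the table had means of at most 0.281 FPKM in either group, and how reads shared with such copies were counted is not given.

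Because 7 of the genes moved together, their promoters were searched for the letters of 2 elements linked to amino acid and growth control. RefSeq promoter windows (GRCh38.p14, 250 bases before to 50 after a start site) were found for 7 of the 10 genes, which leaves out PSPH, SHMT2 and ALDH1L2. The core of the C/EBP-ATF response element, TGATGNAA on either strand, was in the windows of SLC1A4 and MTHFD1L and of 4.46% of 27305 genes. The E-box CACGTG, which reads alike on both strands, was in those of MTHFD1 and MTHFD1L and of 8.77% of genes. The 30 bases around each match are shown 5' to 3' on the plus strand, on which these genes lie, with the matched letters in capitals. In SLC1A4 the match is on the opposite strand (TTGCATCA) and begins 7 bases before 1 of its 2 start sites, and in MTHFD1L the elements do not overlap each other.
SLC1A4, response element, chr2:64989381-64989410: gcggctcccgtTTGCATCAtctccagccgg
MTHFD1L, response element, chr6:150866346-150866375: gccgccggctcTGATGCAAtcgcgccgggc
MTHFD1L, E-box, chr6:150866320-150866349: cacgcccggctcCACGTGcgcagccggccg
MTHFD1, E-box, chr14:64388326-64388355: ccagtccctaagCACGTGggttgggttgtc
The windows of PHGDH, PSAT1, SHMT1 and MTHFD2 held neither string. A match describes the letters of a window only.

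In the wider pathways, genes moved in both directions. Over 6 related lists with 60 tested genes of 75, 19 genes were higher, 21 lower and 20 not past the threshold, beside 34.7% higher and 26.2% lower among all tested genes, and the median log2 fold change was -0.06. With libraries rescaled by their median ratio, the lists gave 16 higher and 27 lower genes, beside 3759 higher and 3919 lower of all 12985 tested genes. Among folate enzymes and carriers (11 tested of 15), 5 rose and 3 fell, with a median of 0.09. TYMS, which makes thymidylate from the one-carbon unit that SHMT enzymes supply, fell from 62.6 ± 0.957 to 21.0 ± 0.369 FPKM (SD, n = 3; log2 fold change -1.57), and GGH, a hydrolase of stored folate, fell by 1.04 on the log2 scale. SLC25A32, the carrier that brings folate into mitochondria where SHMT2 and MTHFD2 work, rose 3.96-fold, from 4.12 ± 0.237 to 16.3 ± 1.54 FPKM (SD, n = 3; log2 fold change 1.96).

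The list of the glycine cleavage system and other mitochondrial donors of one-carbon units had 3 tested genes of 6, and 0 of them passed the test with limma or had an unadjusted p under 0.05. GLDC, the decarboxylase of glycine cleavage, was at 0.448 ± 0.110 and 0.596 ± 0.0427 FPKM in shALKBH5 and shCtrl cells (SD, n = 3; log2 fold change -0.36, 95% interval from -0.82 to 0.10). Among genes that carry or use serine and glycine (13 tested of 17), 4 rose and 5 fell, with a median of 0.03. CBS, which joins serine to homocysteine, fell by 1.05 on the log2 scale, and SLC38A2, a neutral amino acid carrier, by 0.95. SLC1A5, the closest relative of SLC1A4 on the list, was at 59.7 ± 1.66 against 83.2 ± 6.36 FPKM (SD, n = 3; log2 fold change -0.48) and was also lower. SFXN2, of the sideroflexin family of mitochondrial carriers, and SDSL, a serine dehydratase-like enzyme, were higher (0.61 and 0.56, with SFXN2 at 0.35 under a pseudocount of 1). SLC1A5 and GLDC here, and ATF4 and ASNS below, were named for their role after their values were seen.

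In the methionine cycle (7 tested of 10), which takes up the methyl group from folate, 2 genes were higher, 1 was lower and 4 did not pass. MTRR, which reactivates methionine synthase, and AHCY, which hydrolyses S-adenosylhomocysteine, rose (0.56 and 0.38), and AHCYL1, a relative of AHCY, fell (-0.41). Purine synthesis (10 tested of 11), a user of formyl-folate, was split into 5 higher and 4 lower genes with a median of 0.10. PAICS and PPAT fell (-0.64 and -0.57), while IMPDH1 and IMPDH2, the enzymes of the first step towards guanine nucleotides, rose (0.94 and 0.56). In the list of ATF4 and amino acid response genes (16 tested of 16), 8 fell and 3 rose, with a median of -0.18, beside the same shares of all tested genes (26.2% lower and 34.7% higher). ATF4 itself was at 90.5 ± 1.92 against 111 ± 2.54 FPKM (SD, n = 3; log2 fold change -0.29), and ASNS, the asparagine synthetase, at 6.03 ± 0.358 against 10.3 ± 0.681 FPKM (-0.77). VLDLR and CHAC1, named by rule, were lower (-1.58 and -0.94, with VLDLR at -0.82 under a pseudocount of 1), and SLC7A11, named after its value was seen, was close to CHAC1 (-0.94), while ATF5 and SESN2 were higher (1.31 and 0.82). The adjusted p-values behind these calls are from the same limma fit, and the highest among the genes named by rule from these lists was 0.00685, for PPAT.

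**Figure D3:**
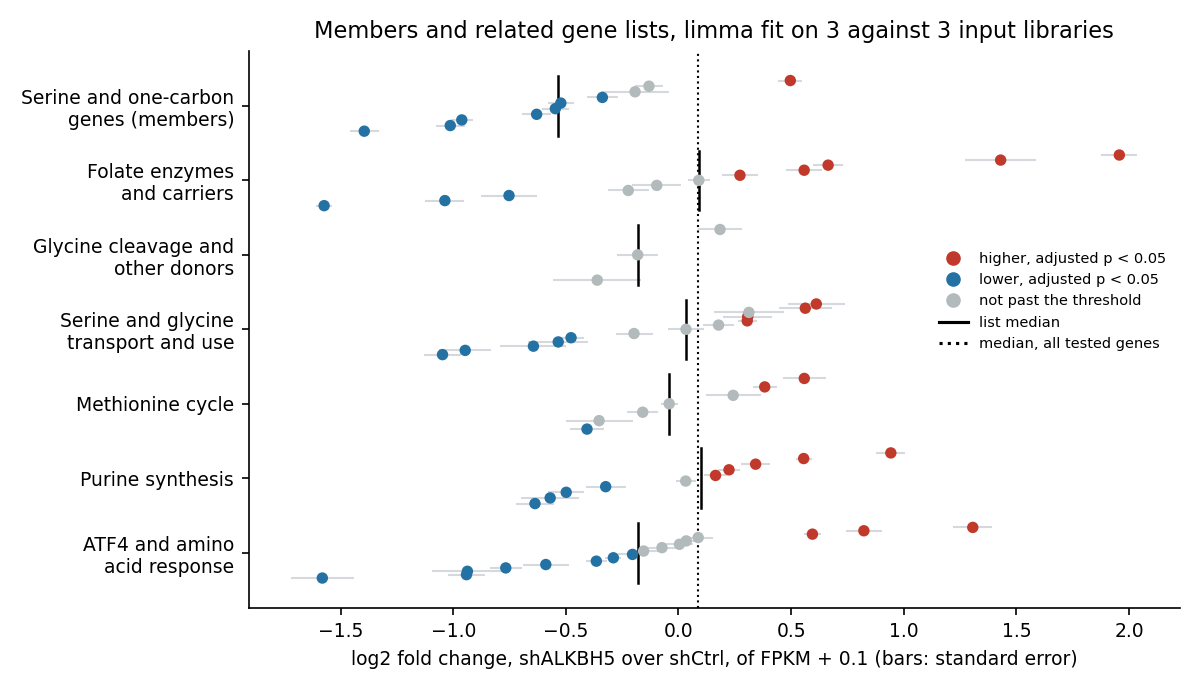
Log2 fold change, shALKBH5 over shCtrl, of each tested gene of the 10 serine and one-carbon genes and of 6 related lists, with bars of 1 standard error from the limma fit. Colours give the call at an adjusted p of 0.05, solid lines the list medians and the dotted line the median of all tested genes (0.09). The 10 genes have a median of -0.53, and the related lists have medians between -0.18 and 0.10.

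The m6A peaks of the 10 genes were compared next, to see whether the loss of the demethylase went with higher enrichment on them. Peaks are the authors' own calls, each with the enrichment of IP over input as a fold. Since there is 1 list per group, no ratio between the lists has a replicate check or a test. The shALKBH5 list held 15 peaks of the 10 genes and the shCtrl list 17, of 46039 and 44304 in all. In each list the peaks lay in 7 genes, and 12 of 15 and 11 of 17 were annotated to the 3'UTR. An FDR under 0.05 was given to 13 and 14 of them, beside 85.4% of all peaks in the shALKBH5 and 86.5% in the shCtrl list. SHMT2, PSPH and MTHFD2 had no peak in either list, although their means over all libraries were 54.1, 15.0 and 19.9 FPKM. Of the tested genes that averaged 10 FPKM or more, 10.6% had no peak in either list.

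Peaks were taken as shared where they overlapped by at least 1 base on the same strand, which gave 13 pairs in 7 genes. A log2 ratio of fold enrichment, shALKBH5 over shCtrl, of 1 or more was found in 1 pair, beside 12.5% of all 46422 shared pairs, and one of -1 or less in 1 pair, beside 12.7%. Both of these pairs rest on the same shCtrl peak, and 1 of the 13 pairs overlaps by 1 base. Under stricter peaks (enriched 2-fold or more, with an FDR no higher than 0.01), 6 pairs were left and 0 were past the fold in either direction, and with a reciprocal overlap of 50% 9 pairs were left, of which 0 were past it upwards and 1 downwards. The median log2 ratio was 0.27 over the 13 pairs and -0.04 over all pairs. A restriction to 3'UTR peaks with an FDR under 0.05 in both lists was not among the planned comparisons. Under it, 7 of 10 pairs had a ratio above 0, beside 46.6% of 18872 pairs, with a median of 0.30 beside -0.03. Of these pairs, 3 were in the weakly expressed ALDH1L2, and without that gene, an alternative added after seeing the data, 4 of 7 pairs were above 0 with a median of 0.32. In the ALDH1L2 pair with 15.9 against 11.5, the same fold enrichment and log10 p were given to 220 other shALKBH5 and 529 other shCtrl peaks.

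SLC1A4 and MTHFD1L carried the firmest large enrichments. The 3'UTR peak of SLC1A4 (65018612 to 65021592 in the shALKBH5 list) had a fold enrichment of 11.4 in shALKBH5 and 9.12 in shCtrl cells, with log10 p-values of -226 and -562 by the peak caller. It was thus slightly higher in the group with less SLC1A4 transcript (log2 ratio 0.32). The peak at the 3' end of MTHFD1L (151092531 to 151101887), which reaches the last base of the gene, had a fold enrichment of 7.08 against 4.53, the largest rise among peaks of these genes with log10 p-values below -20 in both lists (log2 ratio 0.64). MTHFD1 had a shared 3'UTR peak with 8.17 against 5.53, but log10 p-values of only -4.44 and -2.58. The lengths of the MTHFD1 peaks were unlike, 2944 bases in the shALKBH5 and 61 in the shCtrl list, and the pair was lost under the reciprocal overlap.

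In the first enzymes of serine synthesis the 3'UTR enrichment was low in both groups. PHGDH had a fold enrichment of 1.69 in shALKBH5 and 2.04 in shCtrl cells (119744038 to 119744218, log2 ratio -0.27) and PSAT1 of 2.28 and 2.32 (78329020 to 78329527, log2 ratio -0.03). In both genes the shCtrl list alone held a further peak annotated to the 5'UTR, with fold enrichments of 6.38 and 1.65. That of PHGDH spans 63393 bases of the genome (119648531 to 119711923) and that of PSAT1 61. The median fold enrichment of all peaks was 5.31 in the shALKBH5 and 5.25 in the shCtrl list, so the shared peaks of PHGDH and PSAT1 were below the middle of their lists. SHMT1 had a pair of shared 3'UTR peaks that moved in opposite directions, with 3.63 against 2.87 for the peak at 18328459 to 18328729 and 1.76 against 1.98 for that at 18327890 to 18327950. The second of these lies within the overlap with SMCR8.

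ALDH1L2, the gene with the least RNA, had the most peaks in the shALKBH5 list, with 7. In the shCtrl list it had 4, as did MTHFD1. Both pairs past the fold were its own: shALKBH5 peaks with 24.5 (5'UTR) and 4.90 (exon) overlapped the same shCtrl peak with 11.5. These values recur in the lists. The same fold enrichment and log10 p as in the 24.5 peak were given to 68 other shALKBH5 peaks, and those of the 11.5 peak to 529 other shCtrl peaks. In the firmest pair of ALDH1L2 the fold enrichment was 2.87 against 2.38 (log10 p-values -6.19 and -5.27, log2 ratio 0.27). The unshared peaks of MTHFD1 in the shCtrl list were of the same kind, as the values of a pair of them (7.66, log10 p -1.51) were each found in 1276 other peaks.

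**Figure D4:**
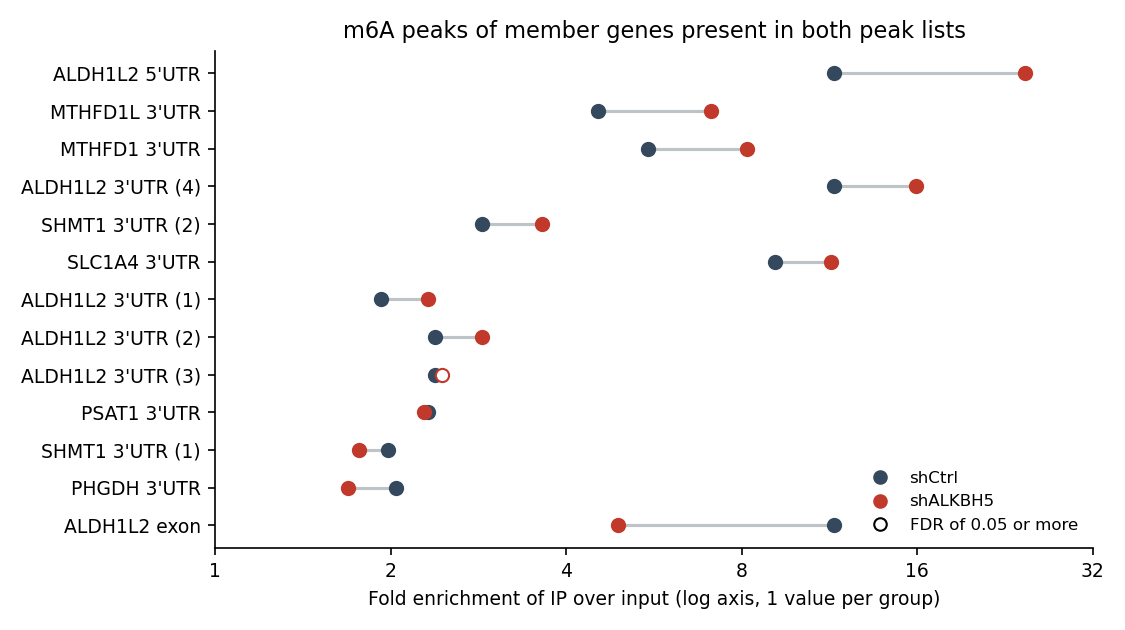
Fold enrichment of IP over input, on a log axis, for the 13 pairs of overlapping peaks in both lists, with 1 value per group and no error. Lines join the shCtrl and shALKBH5 values of a pair, and an open circle marks an FDR of 0.05 or more. SLC1A4, MTHFD1L and MTHFD1 lie higher in shALKBH5, PHGDH lower, and PSAT1 at nearly the same value in both, while the ALDH1L2 5'UTR and exon pairs share the same shCtrl peak at 11.5. The MTHFD1 peaks differ widely in length between the lists.

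The authors' further table of differential peaks, of which only positions were used, held 1 peak each of PHGDH, SLC1A4 and MTHFD1L, all in the 3'UTR. That is 3 of 10 genes, beside 32.7% of all tested genes. All 3 were genes whose transcript fell, by 1.01, 1.40 and 0.52 on the log2 scale, with fold enrichments that were lower for PHGDH and higher for SLC1A4 and MTHFD1L. Among the 7 genes whose transcript fell, SHMT2 had no peak in either list. PSPH, the gene whose transcript rose, had none either.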

How the data were processed

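Expression (input RNA) and m6A peaks (MeRIP-Seq) of shALKBH5 and shCtrl A375 cells were analysed, and samples were grouped by their titles. The authors deposited expression as FPKM per input library, without counts. The aligner, counter and annotation are not given in the sources used here, and the submitters' processing notes list mm10, a mouse build, although genes and positions are human. The authors' peak lists, 1 per group, give each peak a fold enrichment (a ratio of IP over input) and a log10 p and log10 FDR, treated here as a score because some are infinite. Peak caller and pooling are not given. Columns of the authors' own comparisons (fold changes, p-values and FDR between groups) were not used. Starts were changed to count from 1.

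Genes averaging 0.5 FPKM or more over the input libraries entered a two-sided limma 3.58.1 fit (R 4.3.3, eBayes with a trend, group as the single term) on log2(FPKM + 0.1), a scale on which changes of low genes are understated. The fit was tested on simulated data. Other steps used Python 3.11.15, pandas 2.3.3, numpy 2.4.6, scipy 1.17.1 and matplotlib 3.10.9. The study's edgeR needs counts and was not run. At most 0.123% of values were identical between libraries.

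The 10 genes and the related lists were chosen with earlier results of these data known. Besides the 10 genes, ALKBH5, MKI67 and marker genes at 1 FPKM or more, the text names from each list the 2 lowest and 2 highest called genes whose groups do not overlap and whose higher mean is at least 1 FPKM. A further gene that this rule names is not reported here, and genes named outside the rule were chosen for their role or position after their values were seen. The settings tried besides were a pseudocount of 1 or 0.01, the FPKM filter left out or raised to 1, median-ratio scaling, a replicate block, no trend, leaving out each library, stricter peaks (fold enrichment of 2, FDR of 0.01) and a reciprocal overlap of 50%.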

Additional observations from a re-analysis of the deposited data

How the results depend on the processing

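The counts of 7 lower and 1 higher gene among the 10 were the same under each alternative, except that MTHFD2 joined the lower genes, for a count of 8, with median-ratio scaling and without shCtrl replicate 1. When single libraries were left out, the lower genes numbered 7 to 8 and the higher gene stayed at 1, the related lists had 17 to 21 higher and 20 to 22 lower genes, and the log2 fold change of ALKBH5 ranged from -2.45 to -2.29. ALDH1L2 dropped out under the filter of 1 FPKM. Replicate numbers did not pair the libraries: deviations of same-numbered libraries correlated at 0.02, -0.05 and 0.06. With the replicate number as a block, the 10 genes still gave 7 lower and 1 higher, the related lists 20 lower and 19 higher, and ALKBH5 -2.36. Over all tested genes, the block gave 4142 higher and 3129 lower calls in place of 4509 and 3408, and median-ratio scaling 3759 and 3919. The same scaling gave 16 higher and 27 lower genes in the related lists in place of 19 and 21. A pseudocount of 1 moved VLDLR from -1.58 to -0.82, SFXN2 from 0.61 to 0.35 and ALDH1L2 from -0.19 to -0.10, and without shCtrl replicate 2 ALDH1L2 was at -0.08. Under stricter peaks, 6 peaks of the 10 genes were shared in each list in place of 13 and 11, with 0 past the fold in either direction. With the reciprocal overlap, 0 were past the fold upwards and 1 downwards. The other genes named by rule, marker genes aside, kept their direction and call under the alternatives that gave a value. The unknown depth, 3 libraries per group and 1 peak list per group limit the precision.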

Other observations

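MTHFD2L and ALDH1L1 were named outside the rule after their values were seen. MTHFD2L, the mitochondrial relative of MTHFD2, was below the filter and had no test, yet its libraries did not overlap, at 0.677, 0.734 and 0.610 FPKM in shALKBH5 and 0.271, 0.226 and 0.241 FPKM in shCtrl cells. ALDH1L1, the cytosolic relative of ALDH1L2, was listed at 0 in every shALKBH5 library and at no more than 0.0326 FPKM in a shCtrl library. Among the melanoma markers, NGFR fell from 34.7 ± 2.05 to 5.66 ± 0.253 FPKM (SD, n = 3; log2 fold change -2.59) and AXL from 80.4 ± 5.47 to 46.1 ± 0.711 FPKM (-0.80). S100B rose from 32.9 ± 1.35 to 82.1 ± 3.03 FPKM (SD, n = 3; log2 fold change 1.32), S100A1 by 1.21 on the log2 scale and MITF by 0.63, the last with overlapping groups, while SOX10 did not pass the test (-0.03). PDGFRB fell (-1.38), as did the keratinocyte gene KRT14 (-1.22), whose means were 0.369 and 0.961 FPKM in shALKBH5 and shCtrl cells and which was named after its value was seen, and LUM, KDR, KRT10 and CD68 rose (1.09, 0.77, 0.39 and 1.32).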
